A study of Mus musculus with 6 samples.

Results

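The proteasome genes of mouse melanoma cells were followed here through 5 days of Ac4ManNAz, an azide-bearing sugar analog used to label cell-surface sialic acids. Members were taken by name from the deposited table. A gene belonged if its symbol began with Psma, Psmb, Psmc, Psmd, Psme, Psmf or Psmg and a digit, and the 3 immunoproteasome subunits Psmb8, Psmb9 and Psmb10 were left out. This gave 48 of 21801 genes, listed as 116 of 59192 transcripts. Of these, 46 averaged at least 1 FPKM (a fragment density scaled for transcript length and library depth) and entered the test with 9925 genes in all. By known role 14 belonged to the core, 9 to the base, 8 to the lid and 17 lay outside these modules. Psmc3ip and Psme3ip1 share the symbol start but are named as interacting proteins, so they were kept apart.

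All 6 libraries came from B16F10 melanoma cells that express ovalbumin. In 3 of them the cells had been given 50 µM Ac4ManNAz through day 5, and in the other 3 they had received none. Day 5 and a passage once on day 3 were listed for both groups. Whether replicates were cultured apart is not stated in the labels, so p-values cover only variation among these 6 libraries, possibly technical. The comparison asks whether the labelling reagent itself disturbs the transcriptome.

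The proteasome is the protease that degrades most ubiquitin-tagged proteins of the cytosol and nucleus. Its core is a barrel of alpha rings, which gate the entry, around beta rings, which hold the cleaving sites. A base of ATPases unfolds the substrate and feeds it into the core, and a lid removes the ubiquitin chain. Cells that make much secreted or melanosomal protein, such as pigmented melanoma cells, also send misfolded glycoproteins from the endoplasmic reticulum to this protease.

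Marker levels were those of the melanocyte lineage that the label gives, though they do not test the cell line or ovalbumin. All 7 melanocyte markers (Pmel, Tyr, Tyrp1, Dct, Mlana, Mitf and Sox10) averaged above 1 FPKM, and their summed level was 7636 to 9313 FPKM in untreated and 7431 to 9093 FPKM in treated libraries. Mlana stood at 158 FPKM in Ac4ManNAz replicate 2 and at 856 to 1269 FPKM in the other libraries. The summed levels of the fibroblast, leukocyte, endothelial and epithelial markers stayed at or below 4.50 FPKM in each library. Of these markers, Col1a2 and Lyz2 averaged above 1 FPKM, at 2.98 and 2.82. Summed FPKM over all transcripts was 310003 to 347126, and it was 333048 ± 13979 in untreated and 322509 ± 21320 in treated libraries (mean ± SD over 3 libraries, the form used for every group value). In bulk RNA, fewer cells of a type and less RNA per cell cannot be told apart.

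Proteasome mRNAs were close in level with and without the analog, and 0 of the 46 tested members passed. limma with Benjamini-Hochberg adjustment over all 9925 genes called 0 genes in all (0% of genes), and the smallest adjusted p of a member was 0.9998. At an unadjusted p under 0.05 there were 0 members, against 1.78% of all tested genes. The 3 treated values lay wholly above or below the 3 untreated values in 0 members, against 5.8% of all genes. For 39 of the 46 members the 95% interval of the difference lay within 1.5-fold, against 64.3% of all genes and 75.8% of genes that averaged 10 FPKM or more. It lay within 2-fold for 45 members, against 91% of all genes, and on this scale the exception was Psme2. Both bounds were applied to FPKM + 1, so low genes span a wider fold in FPKM itself. Psmf1 and Psmg2, with lower limits of -0.99 and -0.89 (log2), may therefore also exceed 2-fold in FPKM.

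**Figure D1:**
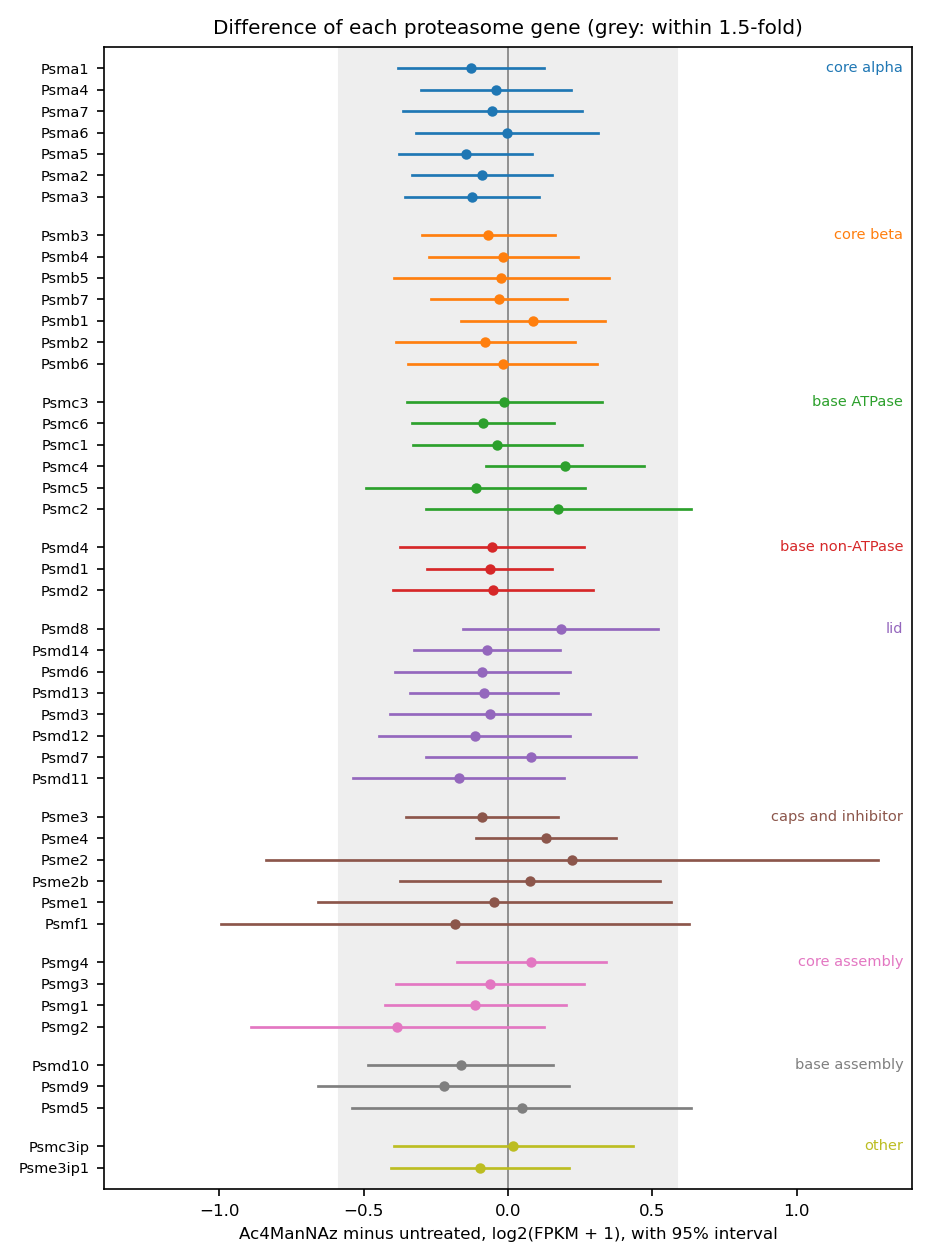
Difference in log2(FPKM + 1) between the 3 Ac4ManNAz and the 3 untreated libraries (x axis) for the 46 tested proteasome genes (y axis, grouped by role), with the 95% interval of the limma fit as a bar and the 1.5-fold band in grey. All bars cross 0, and the widest belong to Psme2 and Psmf1.

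The core, base and lid had median differences of similar size. Their median log2 differences, treated minus untreated, were -0.05, -0.05 and -0.08, where the median of all tested genes was -0.0014 and that of genes averaging 10 FPKM or more was -0.04. Averages were lower in treated cells for 13 of 14 core, 7 of 9 base and 6 of 8 lid genes. Over all 46 members the count was 35, or 76.1%, against 50.4% of all tested genes and 61.8% of those with at least 10 FPKM. With each library scaled to the same summed FPKM it was 27 of 46 members and 7 of 14 core genes, where 38.1% of all genes were lower. That scaling moved the median of all genes to 0.04. Measured from the median of all genes, the core, base and lid medians were -0.042, -0.046 and -0.071 with it and -0.047, -0.051 and -0.076 without it. The core count was also 7 without Ac4ManNAz replicate 3, where 48.8% of all genes were lower, and 8 without untreated replicate 2 (50%). It was 9 with upper quartile scaling (42.9%) and 9 without Ac4ManNAz replicate 2 (56.2%). With array weights it was 14, where 40 of 46 members and 51.7% of all genes were lower. The remaining alternatives gave 12 or 13.

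Deviations of the subunits moved together within single libraries, most clearly in the treated ones and in untreated replicate 2. The median deviation of the 14 core genes from their own means was 0.02, 0.09 and -0.0012 (log2) in untreated replicates 1 to 3. In Ac4ManNAz replicates 1 to 3 it was 0.10, -0.12 and -0.12. One treated library thus stood above all untreated ones, and the other two stood below them. The lid had 0.01, 0.11 and -0.05 in the untreated and 0.10, -0.12 and -0.07 in the treated libraries, and the base had 0.08, 0.07 and -0.05, then 0.07, -0.10 and -0.04. Of the 31 core, base and lid genes, 24 lay above their own mean in Ac4ManNAz replicate 1, 24 lay below it in replicate 2 and 29 lay below it in replicate 3. Of all 9925 tested genes, 4773 lay above, 4600 below and 5399 below in the same libraries. In untreated replicate 2, 26 of the 31 lay above, where 5119 of all genes did. In untreated replicates 1 and 3, 19 lay above and 21 below, near the share of all genes (6359 above and 6505 below). Summed FPKM of the whole library was 347126 in Ac4ManNAz replicate 1, and 310003 and 310399 in replicates 2 and 3. In untreated replicates 1 to 3 it was 340444, 341776 and 316925. Without Ac4ManNAz replicate 1 the core median was -0.11, and without Ac4ManNAz replicate 3 it was -0.0032.

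**Figure D2:**
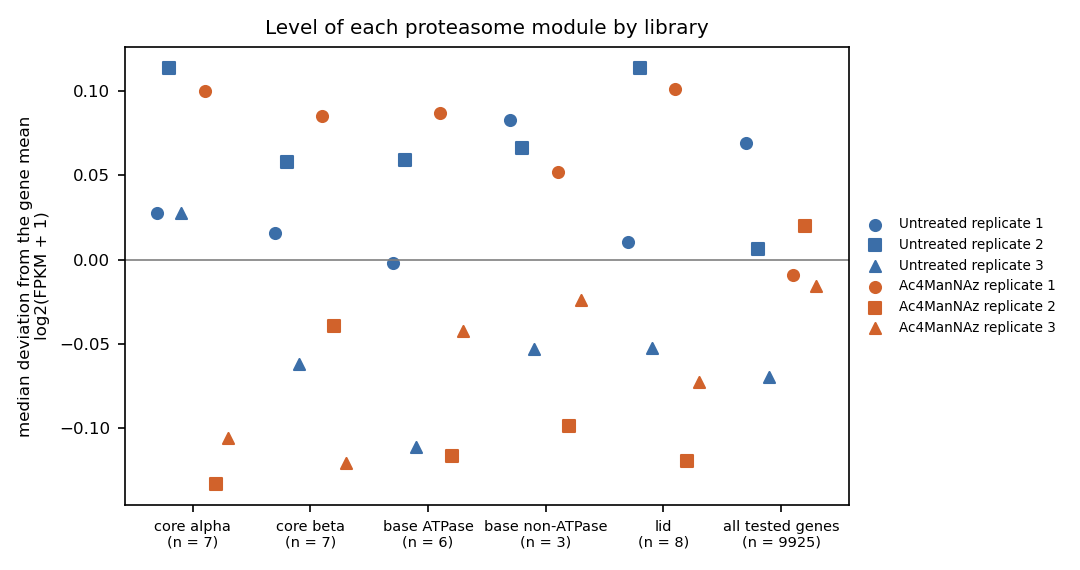
Median deviation of each proteasome module from its genes' own means, in log2(FPKM + 1) (y axis), for each of the 6 libraries, with all 9925 tested genes at the right. Ac4ManNAz replicate 1 (orange circle) stood with untreated replicate 2 (blue square) at the upper end of both core rings and the lid, while Ac4ManNAz replicates 2 and 3 were below 0 in all 5 modules.

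The modules stood in nearly the same proportion to each other in both groups. Base genes summed to 0.400 ± 0.0108 of the core sum in untreated and 0.410 ± 0.0126 in treated cells. Lid genes summed to 0.358 ± 0.0152 and 0.376 ± 0.0160 of the core sum, and beta ring genes to 1.13 ± 0.0302 and 1.17 ± 0.0302 of the alpha ring sum. Together the 31 genes held 0.869% ± 0.0251 of all summed FPKM in untreated and 0.880% ± 0.0211 in treated libraries. The ranges of all 4 quantities overlapped between the groups.

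The subunits of one complex differed far more among themselves than between treatments. Core genes ranged from Psmb6 to Psmb3 over 6.19-fold in mean FPKM, base genes over 12.1-fold and lid genes over 18.7-fold. The coefficient of variation over the 6 libraries had a median of 7.72% in the core, 11.6% in the base and 12.6% in the lid, where all tested genes had 15.6% and genes with at least 10 FPKM had 12.03%. Levels of the 46 members in untreated and treated cells had a Pearson r of 0.997 on the log2(FPKM + 1) scale, a description across genes that share their libraries. Of the 31 core, base and lid genes, 21 were among the top 10% of tested genes by mean FPKM.

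**Figure D3:**
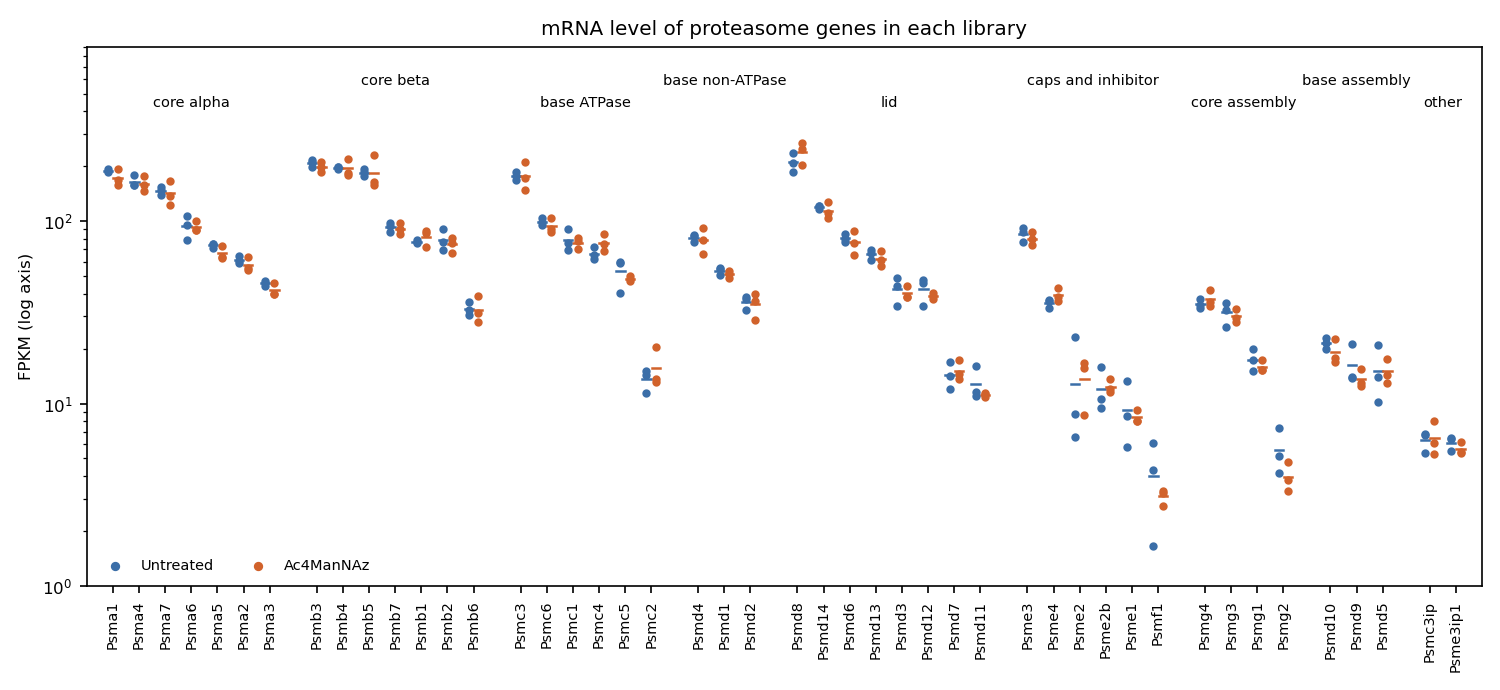
FPKM (log axis) of the 46 tested proteasome genes in each of the 3 untreated (blue) and 3 Ac4ManNAz (orange) libraries, with group means as short lines, ordered by level within each role. The members of one ring or module spread over several fold, while the libraries of both groups overlap for each gene.

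The 3 catalytic subunits were the first members compared. Psmb5, which carries the chymotrypsin-like activity, had 185, 192 and 176 FPKM in untreated and 230.4, 165 and 158 FPKM in treated libraries. The treated values lay on both sides of the untreated ones, and the log2 difference was -0.02 ± 0.16 (SE) with a 95% interval from -0.40 to 0.35. Psmb6, the caspase-like subunit, had 35.9, 32.4 and 30.6 FPKM in untreated and 31.4, 38.7 and 28.1 FPKM in treated libraries, a log2 difference of -0.02 ± 0.14. Psmb7, the trypsin-like subunit, had 94.1, 97.3 and 86.7 FPKM in untreated and 97.2, 90.4 and 84.5 FPKM in treated libraries, a log2 difference of -0.03 ± 0.10. Each catalytic gene overlapped between groups. Per length, Psmb6 mRNA was thus listed at 33.0 ± 2.68 FPKM in untreated cells beside 185 ± 8.09 for Psmb5 and 92.7 ± 5.47 for Psmb7, and no library reversed that order.

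The promoters of Psmb5 and Psmb6 are shown because both hold the core of the antioxidant response element, the site through which the factor NRF1 (Nfe2l1) is known to raise proteasome genes when the protease is blocked. Shown are the 250 bases before the RefSeq start, 5′ to 3′ on the gene's strand, from build GRCm38.p6 at chr14:54617996-54618245 (minus strand) for Psmb5 and chr11:70525107-70525356 (plus strand) for Psmb6. Capitals mark TGACNNNGC.
Psmb5: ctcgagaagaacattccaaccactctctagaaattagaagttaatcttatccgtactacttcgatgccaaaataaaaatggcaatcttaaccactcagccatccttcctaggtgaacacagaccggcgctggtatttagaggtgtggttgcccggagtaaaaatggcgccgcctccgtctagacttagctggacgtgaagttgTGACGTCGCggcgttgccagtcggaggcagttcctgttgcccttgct
Psmb6: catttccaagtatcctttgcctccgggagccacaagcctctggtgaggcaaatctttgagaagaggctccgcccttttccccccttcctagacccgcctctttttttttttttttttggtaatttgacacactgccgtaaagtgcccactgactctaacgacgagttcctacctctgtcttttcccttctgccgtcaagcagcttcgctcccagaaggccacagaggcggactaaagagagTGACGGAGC

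The first base of the match lies 47 bases before the start in Psmb5 and 9 bases before it in Psmb6. 4 other members held the same letters, and these windows compare them, with the match in capitals and up to 16 bases on each side. The strand on which TGACNNNGC reads is plus for Psmd9 and minus for Psme4, Psmd12 and Psmc6.
Psmd9: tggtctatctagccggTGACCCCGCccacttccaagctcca
Psme4: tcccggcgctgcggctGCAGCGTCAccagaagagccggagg
Psmd12: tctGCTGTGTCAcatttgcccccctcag
Psmc6: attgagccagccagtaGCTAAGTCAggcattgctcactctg
They come from chr5:123228143-123228183, chr11:30771752-30771792, chr11:107479278-107479305 and chr14:45329581-45329621 of GRCm38.p6, all on the plus strand. The RefSeq table held 44 promoters of 40 members, and 6 of the 44, or 13.6%, contained TGACNNNGC on either strand from 250 bases before to 50 bases after the start. Among all 32851 promoters of the same window the share was 12.4%, so the letters were about as common in proteasome promoters as elsewhere. CCAAT, the letters of the NF-Y box, occurred in 15 of 44, or 34.1%, against 37.4% of all promoters. A match describes letters, not a bound site. Psmb1, Psmb2, Psmb7, Psmc3, Psmd3, Psmd7, Psmg2 and Psma8 had no entry.

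In the alpha ring, which forms the gate of the barrel, all 7 genes averaged lower in treated cells, from -0.0042 for Psma6 to -0.15 for Psma5, and none passed. Psma5 had 74.6, 74.8 and 71.2 FPKM in untreated and 72.9, 62.7 and 63.8 FPKM in treated libraries, with an unadjusted limma p of 0.177 and an adjusted p of 0.9998. Only Ac4ManNAz replicate 1 reached the untreated range. Psma1, the alpha gene with the highest level, stood at 189 ± 3.31 FPKM without and 173 ± 18.3 FPKM with the analog. Psma3, the lowest, had 45.5 ± 1.69 and 41.8 ± 3.42 FPKM. In the beta ring Psmb3 was highest, at 208 ± 9.32 and 199 ± 12.4 FPKM. Psmb1 was the beta gene that averaged higher in treated cells, at 76.9 ± 1.203 and 82.0 ± 8.57 FPKM, with the log2 difference at 0.09 (interval -0.16 to 0.34). The variant core genes were silent or nearly so: Psma8, the alpha subunit of the testis, was listed at 0 in all libraries, and Psmb11, the beta subunit of the thymus cortex, at 0 to 0.0798 FPKM.

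Among the 6 ATPases of the base, Psmc4 had the smallest unadjusted limma p, 0.131 (adjusted p 0.9998). Its levels were 64.8, 72.0 and 61.8 FPKM in untreated and 85.0, 75.1 and 68.7 FPKM in treated libraries. Untreated replicate 2 lay above Ac4ManNAz replicate 3, so the groups overlapped, and the log2 difference was 0.20 ± 0.12. Psmc3 was the most abundant ATPase mRNA, at 177 ± 9.24 and 177 ± 31.9 FPKM, and Psmc2 the least, at 13.6 ± 2.00 and 15.7 ± 4.06 FPKM. The other three ranged from Psmc5 to Psmc6, with log2 differences from -0.11 to -0.04. Psmd4, a ubiquitin receptor, had 81.1 ± 3.99 and 78.7 ± 13.0 FPKM. The large scaffold subunits Psmd1 and Psmd2 had 53.6 ± 2.76 and 51.2 ± 2.28 FPKM, and 36.1 ± 3.22 and 35.0 ± 5.84 FPKM. Psmd1 had the smallest coefficient of variation of all tested members, 4.97%.

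In the lid, Psmd14, the deubiquitinase that strips the chain, had 121, 121 and 116 FPKM in untreated and 128, 104 and 111 FPKM in treated libraries, with the log2 difference at -0.07 (interval -0.32 to 0.18). Psmd8, a structural lid subunit, was the most abundant lid mRNA. Its levels were 209, 236 and 186 FPKM in untreated and 247, 267 and 204 FPKM in treated libraries. These values overlapped, with a log2 difference of 0.18 ± 0.14. Psmd11, known in human pluripotent cells as a subunit that favours assembly of the full complex, was the least abundant, at 12.8 ± 2.72 and 11.1 ± 0.312 FPKM, and Psmd7 stood beside it at 14.3 ± 2.39 and 15.1 ± 1.91 FPKM. Psmd7 was above Psmd11 in each of the 6 libraries, while the ranges of the pair overlapped in untreated cells and did not in treated cells. The other lid genes, Psmd3, Psmd6, Psmd12 and Psmd13, had log2 differences from -0.11 to -0.06.

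The alternative caps open the core without the base. Psme3, the nuclear activator, was the most abundant cap mRNA, at 85.2 ± 7.67 FPKM in untreated and 80.0 ± 6.63 in treated cells. Psme4, a large activator known for its role in sperm, had 33.5, 36.6 and 36.8 FPKM in untreated and 36.3, 42.9 and 38.4 FPKM in treated libraries. Ac4ManNAz replicate 1 fell within the untreated range, and the log2 difference was 0.13 ± 0.10. Psme1 and Psme2, the interferon-induced pair, were lower and more variable. Psme2 had 23.2, 8.79 and 6.53 FPKM in untreated and 16.7, 15.6 and 8.61 FPKM in treated libraries, and its interval ran from -0.84 to 1.28. Untreated replicate 1 was the highest library for both Psme1 and Psme2. Psme2b had 11.9 ± 3.37 and 12.4 ± 1.09 FPKM, but it is a near copy of Psme2: 95.8% of 836 aligned bases are identical between Psme2-208 and the single-exon Psme2b-201. How their reads were divided is uncertain. Psmf1, an inhibitor of the core, had 4.34, 6.09 and 1.66 FPKM in untreated and 3.30, 3.24 and 2.76 FPKM in treated libraries, so the untreated values spanned the treated ones.

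Assembly chaperones were listed at lower levels than most subunits. Psmg1, Psmg2, Psmg3 and Psmg4 help to build the alpha ring, and Psmg4 was the most abundant of them, at 35.2 ± 2.06 and 37.4 ± 3.79 FPKM. Psmg2 was the lowest and had the smallest p of all members. Its levels were 7.36, 5.17 and 4.15 FPKM in untreated and 3.79, 4.80 and 3.32 FPKM in treated libraries. Ac4ManNAz replicate 2 lay within the untreated range, and the log2 difference of -0.38 ± 0.21 had an unadjusted limma p of 0.117 and an adjusted p of 0.9998. Psmg1 had 17.4 ± 2.46 and 15.96 ± 1.26 FPKM. Of the chaperones of the base, Psmd10 (gankyrin) had 21.3 ± 1.42 and 19.1 ± 3.10 FPKM, Psmd9 had 16.4 ± 4.19 and 13.7 ± 1.59 FPKM, and Psmd5 had 14.99 ± 5.40 and 15.02 ± 2.38 FPKM. The namesakes Psmc3ip and Psme3ip1 had 6.31 ± 0.815 and 6.45 ± 1.39, and 6.11 ± 0.564 and 5.64 ± 0.452 FPKM.

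Single transcripts of these genes were less steady than the gene sums. Of the 116 transcripts, 70 averaged at least 1 FPKM, and limma with Benjamini-Hochberg adjustment over all 14846 such transcripts called 0 of them, where it called 0.0606% of all. At an unadjusted p under 0.05 there were 2 of the 70, against 2.54% of all tested transcripts. For 29 of the 46 members the main transcript held at least 90% of the sum in every library. In 6 genes a transcript's share of its gene moved by more than 50 percentage points between libraries: Psmc3, Psmc2, Psmg4, Psmd12, Psmg2 and Psme1. These counts of main transcripts and shares were not made over all genes, so whether proteasome genes differ from others was not tested.

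**Figure D4:**
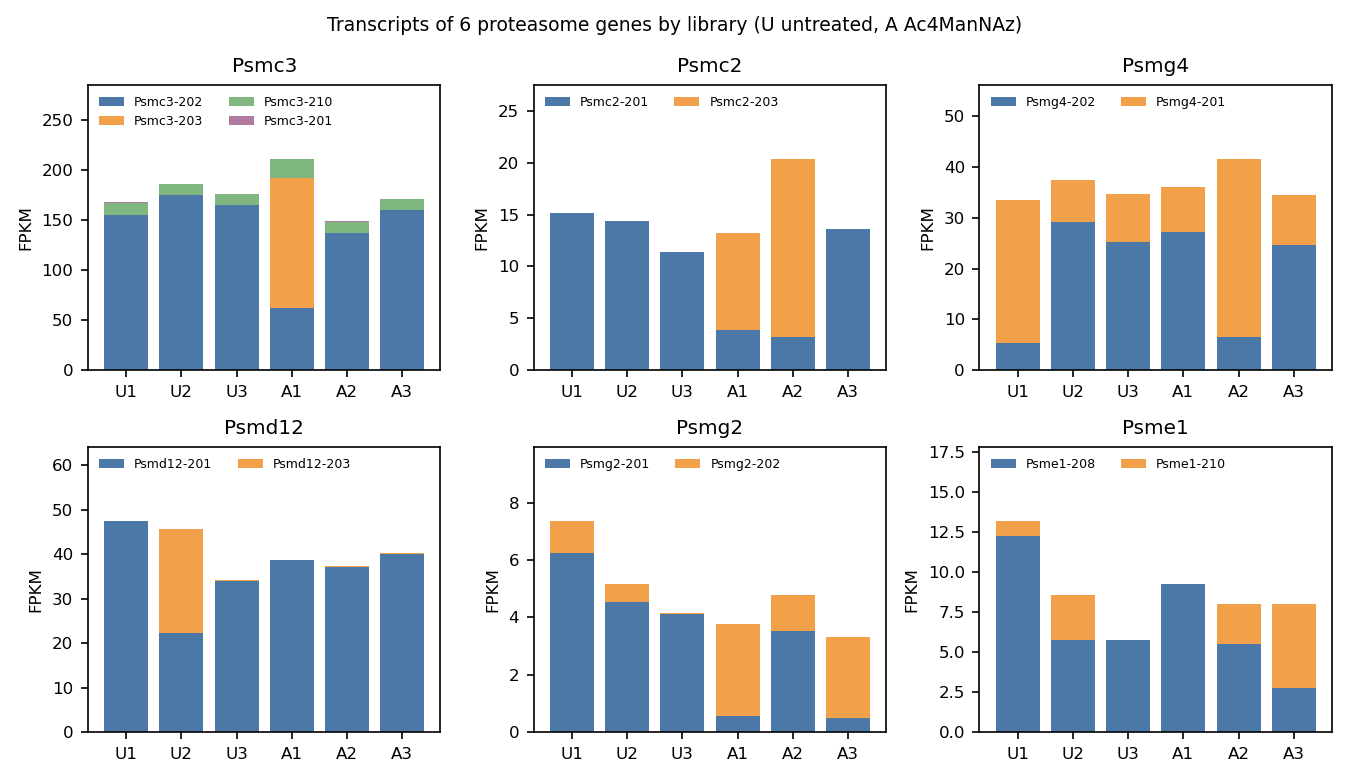
FPKM of the transcripts of 6 proteasome genes (stacked bars from 0) in untreated (U1 to U3) and Ac4ManNAz (A1 to A3) libraries. Psmc3-203 appears in A1, Psmc2-203 in A1 and A2, Psmd12-203 chiefly in U2, and Psmg4-201 leads in U1 and A2.

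In Psmc3 the transcript Psmc3-203 was listed at 130.3 FPKM in Ac4ManNAz replicate 1 and at 0 in the 5 other libraries, while Psmc3-202 stood at 61.8 FPKM in that library and at 138 to 175 FPKM elsewhere. The unadjusted limma p was 0.272 for Psmc3-203 and 0.162 for Psmc3-202. In Psmg4, Psmg4-201 stood at 28.04, 8.25 and 9.46 FPKM in untreated and 8.76, 35.1 and 9.77 FPKM in treated libraries, and Psmg4-202 at 5.36, 29.2 and 25.3, then 27.2, 6.52 and 24.7 FPKM. One library of each group therefore had the order of its transcripts turned, and the gene sum stayed between 33.4 and 41.7 FPKM.

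In each of these pairs one transcript lacks a coding exon of the other, printed here from the GENCODE M21 transcripts. The ends of the transcripts were not compared. Whether reads over this exon account for the listed shift in share was not tested. The exon is in capitals, with 15 bases of the neighbouring exons on each side, 5′ to 3′ on the gene's strand.
Psmc3-202 exon 3: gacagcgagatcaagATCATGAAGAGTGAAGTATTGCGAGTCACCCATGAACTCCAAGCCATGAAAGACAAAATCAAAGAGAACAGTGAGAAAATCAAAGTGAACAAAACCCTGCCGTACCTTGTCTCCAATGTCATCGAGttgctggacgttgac
Psmg4-202 exon 2: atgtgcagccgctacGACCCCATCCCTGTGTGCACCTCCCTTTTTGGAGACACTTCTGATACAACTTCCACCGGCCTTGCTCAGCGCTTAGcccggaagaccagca
The Psmc3 exon (GRCm38, chr2:91054979-91055104, plus strand) has 126 bases, or 42 codons, and its absence in Psmc3-203 keeps the reading frame. The Psmg4 exon (GRCm38, chr13:34166061-34166136, plus strand) has 76 bases, which is no multiple of the codon length, and the coding part is 369 bases with it and 246 bases without it in Psmg4-201. Psmd12-201 and Psmd12-203 share 9 of 11 exons. Psmd12-203 was listed at 23.2 FPKM in untreated replicate 2 and at 0.0959 FPKM or less in each other library.

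The transcripts of Psmg2 and Psmc2 had the smallest p-values. Psmg2-201 stood at 6.25, 4.53 and 4.13 FPKM in untreated and 0.555, 3.53 and 0.485 FPKM in treated libraries, a log2 difference of -1.43 ± 0.47 (unadjusted limma p 0.0234, adjusted p 0.9998). Psmg2-202 was listed at 1.12, 0.643 and 0.0244 FPKM, then at 3.23, 1.26 and 2.83 FPKM, a difference of 1.12 ± 0.38 (unadjusted limma p 0.0260, adjusted p 0.9998). For both transcripts the groups did not overlap, which held for 3.72% of all tested transcripts downward and 2.66% upward. Psme4-201 was the remaining transcript without overlap, at 32.2 to 35.2 FPKM in untreated and 35.3 to 40.4 FPKM in treated libraries. Psmc2-201 stood at 15.2, 14.4 and 11.4 FPKM in untreated and 3.90, 3.18 and 13.6 FPKM in treated libraries, with an unadjusted limma p of 0.0615. Psmc2-203 was at 0 in 4 libraries and at 9.28 and 17.2 FPKM in Ac4ManNAz replicates 1 and 2, with an unadjusted limma p of 0.0570. Ac4ManNAz replicate 3 thus looked like the untreated libraries for Psmc2, and the gene sum overlapped between the groups. The next smallest unadjusted limma p, 0.138, was that of Psmc4-201, which held the whole of its gene's level in each library.

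Genes that work with the proteasome but lie outside the name rule did not pass either. Of 43 listed, 41 were tested, 16 averaged higher and 25 lower, and limma with Benjamini-Hochberg adjustment called 0. The share that averaged lower was 50.4% of all tested genes and 61.8% of those with at least 10 FPKM. At an unadjusted p under 0.05 there were 2 of the 41, against 1.78% of all tested genes. Adrm1, a ubiquitin receptor of the base, had 56.7 ± 5.38 and 56.6 ± 5.30 FPKM, the small lid subunit gene Sem1 had 117 ± 6.14 and 113 ± 14.3 FPKM, and Pomp, which guides beta ring assembly, had 42.4 ± 5.76 and 39.2 ± 4.27 FPKM. Nfe2l1, the factor named above, had 10.02 ± 0.594 and 9.75 ± 0.582 FPKM. Of the immunoproteasome, Psmb10 had 6.69 ± 1.75 and 6.56 ± 1.02 FPKM, and Psmb8 and Psmb9 were under 0.2 FPKM in each library.

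Ufd1 had the smallest p of that list. It encodes a partner of the segregase Vcp, which pulls ubiquitin-tagged proteins out of membranes and complexes before they reach the proteasome. Its level was 5.39, 5.82 and 5.68 FPKM in untreated and 9.43, 7.92 and 10.3 FPKM in treated libraries, with each treated value above each untreated one. The log2 difference was 0.62 ± 0.13 with an interval from 0.30 to 0.93, an unadjusted limma p of 0.00238 and an adjusted p of 0.9998, so it did not pass. Its other partner Nploc4 had 44.8 ± 2.01 and 40.8 ± 1.77 FPKM, with treated values all below the untreated ones, and Vcp itself had 143 ± 13.7 and 142 ± 3.99 FPKM. Txnl1, a thioredoxin-like protein bound to the proteasome, had 44.3 ± 1.55 and 49.7 ± 2.70 FPKM without overlap (unadjusted limma p 0.116, adjusted p 0.9998). In all, 3 genes of the list lay wholly higher and 1 wholly lower, against 2.1% and 3.71% of all genes, the remaining one being Zfand2a at 9.80 ± 0.294 and 10.5 ± 0.535 FPKM. Rps27a, a ubiquitin fusion gene with many near copies, stood at 33.1, 292 and 7.996 FPKM in untreated and 339, 320.3 and 279 FPKM in treated libraries, with overlap (unadjusted limma p 0.0389, adjusted p 0.9998).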

How the data were processed

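RNA depleted of rRNA was made into strand-specific libraries, per the labels' protocols. The authors deposited 1 table that gives FPKM for each annotated transcript in each library. Its unit was read from the table's name and values. Which aligner, quantifier, build and annotation they used is not given in the sources used here. Groups and replicate numbers came from the sample titles. The genome coordinates printed are those of the reference sequences, not of the deposited table.

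Transcripts were summed per gene identifier. Genes averaging 1 FPKM or more (9925) entered, as log2(FPKM + 1), a two-sided limma fit (version 3.58.1, R 4.3.3) with group as the only term, eBayes with a trend and Benjamini-Hochberg adjustment at 0.05. Differences on this scale understate those of low genes. The 14846 transcripts averaging as much were tested likewise. The table holds no counts. With 1 fragment set to the commonest small product of FPKM and length, 31.4% to 56.9% of low values came within 0.05 of a whole number, so whole fragments were not recovered, depth is unknown and no counting interval is given. Alternatives were other pseudocounts, filters, scalings and eBayes settings, array weights, the replicate block, the top transcript of each gene, and each library left out. The test was checked on simulated data.

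Named in the text were the catalytic genes and, in each role group, the 2 members with the smallest p and those with the highest and lowest level, genes without overlap or with a library far from its median, the 3 outside genes with the smallest p, and the 5 transcripts with the smallest p. Psme3ip1 and Psmc3ip meet the literal name rule and are counted, although the plan had meant to leave out Psme3ip1. Other genes named were chosen after their values were seen. Members and lists were chosen with earlier results of these data known. Python 3.11.15, pandas 2.3.3, numpy 2.4.6, scipy 1.17.1 and matplotlib 3.10.9 were used. Promoters are from RefSeq (GRCm38.p6). Exons are from GENCODE M21 (GRCm38), which held 115 of the 116 member transcripts by identifier.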

Additional observations from a re-analysis of the deposited data

How the results depend on the processing

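Member genes called, member transcripts called and outside genes called stayed at 0 under each alternative run. Over all genes, array weights called 2 of 9925 and the fit without Ac4ManNAz replicate 2 called 1 of 9873. With each gene's top transcript 4 of 9574 were called, and the other alternatives called 0. The smallest adjusted p of a named member under any alternative was 0.133, with array weights. The number of members with an unadjusted p under 0.05 was 14 with array weights. Those weights gave 2389 over all genes where the fit without them gave 177. The member count was 1 with equal summed FPKM (181 of 9925 genes in all). It was also 1 with each gene's top transcript used instead of its sum (212 of 9574 genes). It ranged from 0 to 4 when each library was left out in turn, reaching 4 when untreated replicate 3 was dropped (194 of 9943 genes in all) and 1 when Ac4ManNAz replicate 1 was (532 of 9938). The core median was -0.16 with array weights and ranged from -0.11 to -0.0032 without single libraries. The base median ranged from -0.09 to -0.01 and the lid median from -0.14 to -0.02 in the same way. For these results the cause was not tested. All 3 medians stayed below 0 under each alternative, but without Ac4ManNAz replicate 2 the base and lid medians lay 0.0019 and 0.0034 above that of all genes. Of 457 values of 27 named members under 17 alternatives, 31 changed sign, and 14 of the 27 members kept their sign throughout. The eBayes settings, the replicate block and the filters leave a gene's log2 difference unchanged, so they could not change its sign. Same-numbered libraries deviated together only in part (r of 0.06, 0.02 and 0.26 for numbers 1 to 3), so the numbers were not taken to pair the samples. With the replicate block 0 members were called and the unadjusted count was 0. The number of libraries limits how small a difference could pass.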
